A study of Mus musculus with 2 samples.

Results

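Neurotensin (Nts), the tachykinin precursors Tac1 and Tac2, the CART peptide precursor (Cartpt) and brain-derived neurotrophic factor (Bdnf) are 5 genes that encode secreted signalling peptides or proteins of neurons. They were chosen by their measured levels in the same libraries described here, from 24905 genes in the count table, and all 5 were present in it. Their levels, their spread over cells and their difference between cells with and without the transcription factor Foxb1 are therefore given as a description, with no test. Single cells of the newborn mouse hypothalamus were profiled by Drop-seq, which isolates cells in droplets, reads transcripts from their 3' end and counts molecules by a random tag (unique molecular identifier, UMI). There was 1 Sim1 heterozygous library (Sim1-Cre;tdTomato+/-;Sim1+/-) and 1 control library (Sim1-Cre;tdTomato+/-), each from pooled CD-1 pups of postnatal day 1 to 4 (6 per pool by the sample labels, 5 to 6 by the extraction protocol). Both pools carried the Sim1-Cre driver and the Ai14 tdTomato reporter, so the control cells too come from animals with the driver, and viable tdTomato-positive cells were sorted. The reporter stays on once Cre has acted, so the sort takes in cells whose precursors used Sim1 as well as cells that use it now. Each genotype was a single library, so a difference has no replicate check and compares these libraries only, and intervals (95%) cover counting error alone.

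Neuropeptides are cut from larger precursors, stored in dense-core vesicles and released to act on G protein-coupled receptors over a distance. Neurotensin and neuromedin N come from the Nts precursor, substance P and neurokinin A from Tac1, neurokinin B from Tac2, and the CART peptides from Cartpt. Bdnf is a neurotrophin that binds the receptor tyrosine kinase TrkB, and its transcription follows neuronal activity. In the hypothalamus, Cartpt is known from melanin-concentrating hormone neurons and from vasopressin and oxytocin neurons, Tac2 from kisspeptin neurons of the arcuate nucleus, and Foxb1, a forkhead factor, from the developing mammillary body. Sim1 is a transcription factor needed to form the paraventricular nucleus and also takes part in mammillary development.

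The coding stretches that end in the active part of each tachykinin and neurotensin-family peptide are shown because they are what makes Tac1 and Tac2 a family and what makes Nts yield a pair of peptides. They are read from GENCODE M21 transcripts (mouse build mm10). Capitals mark the codons of the shared C-terminal signature. The lower-case letters after it end in the pair of basic codons that is the cleavage signal, which in the tachykinins follows a glycine codon (ggc).
Substance P (Tac1): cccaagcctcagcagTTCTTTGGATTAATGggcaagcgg
Neurokinin A (Tac1): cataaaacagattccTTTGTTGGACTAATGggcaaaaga
Neurokinin B (Tac2): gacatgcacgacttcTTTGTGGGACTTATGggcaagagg
Neuromedin N (Nts): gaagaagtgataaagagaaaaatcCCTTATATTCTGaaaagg
Neurotensin (Nts): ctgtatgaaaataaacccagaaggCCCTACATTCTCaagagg
Nts lies on chromosome 10 from 102481756 to 102490486 (minus strand), Tac1 on chromosome 6 from 7554879 to 7565834 (plus strand) and Tac2 on chromosome 10 from 127724478 to 127731768 (plus strand). Cartpt lies on chromosome 13 from 99898489 to 99901091 (minus strand) and Bdnf on chromosome 2 from 109674700 to 109727007 (plus strand), all protein-coding. No annotated gene overlaps Nts, Tac1, Tac2 or Cartpt, whereas Bdnf overlaps the antisense gene Gm45346, which had 5 UMIs in the Sim1 heterozygous library and 7 in the control library. Foxb1, on chromosome 9 from 69757710 to 69760940 (minus strand), overlaps the antisense gene B230323A14Rik, which had 960 and 671 UMIs. Whether counting used strand is not known here, so reads of Foxb1 and of this partner may not be fully separated.

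The libraries had 5397693 UMIs in 2476 barcodes (Sim1 heterozygous) and 6525080 UMIs in 2807 barcodes (control), with no barcode in common. After leaving out barcodes with under 300 genes and those marked as doublets, 2452 Sim1 heterozygous cells (median 1579 UMIs) and 2803 control cells (median 1772 UMIs) were kept. Sim1 itself was at 91.7 UMIs per 1000000 UMIs (CPM) in the Sim1 heterozygous library and 112 CPM in the control library, from 494 and 731 UMIs, a log2 ratio of -0.29 [-0.46 to -0.12]. The direction fits the labels, but where the 3' reads lie relative to the deleted part is not given. Markers of some other cell types moved with the library: pituitary genes summed to 5.94 CPM in the Sim1 heterozygous library and 352 CPM in the control library, fibroblast genes to 3.71 and 36.1 CPM and microglial genes to 2.79 and 20.6 CPM. Others were closer: astrocyte or radial glia genes summed to 794 and 693 CPM and oligodendrocyte lineage genes to 69.3 and 80.9 CPM. The part of these markers in the differences of the 5 genes was not tested. Glia-like cells, taken as a guide to free RNA in droplets, numbered 56 and 55.

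Nts, Tac1, Cartpt and Bdnf were higher in cells with Foxb1 than in other cells of both libraries, and Tac2 was lower. Of the higher genes, Tac1 differed least in the Sim1 heterozygous library. A cell counts here as Foxb1-positive when it holds at least 2 Foxb1 UMIs, which gave 872 Sim1 heterozygous cells (35.6%, median 2093 UMIs, against 1309 UMIs in the other cells) and 656 control cells (23.4%, median 1836 UMIs, against 1752 UMIs). The libraries' Foxb1-positive shares also differed after each cell was thinned to 856 UMIs, where 23.8% (438 of 1841) of Sim1 heterozygous cells and 13.3% (352 of 2647) of control cells held at least 2 Foxb1 UMIs. In glia-like cells, 4 of 56 and 2 of 55 held at least 2, so a part of the Foxb1-positive cells at the limit may hold free RNA. In both libraries the cluster led by Rprm and Hopx gave the most Foxb1-positive cells (39.1% and 44.5%), followed in the Sim1 heterozygous library by the cluster led by Pmfbp1 and Tanc1 (31.1%) and in the control library by that led by Emx2 and Synpr (19.5%).

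Nts had 383 CPM [357 to 409] in Foxb1-positive cells of the Sim1 heterozygous library and 120 CPM [108 to 133] in the other cells, a log2 ratio of 1.67. In the control library it had 418 CPM [385 to 452] in Foxb1-positive cells and 40.0 CPM [34.6 to 45.9] in the other cells, a log2 ratio of 3.38. Foxb1-positive cells thus held 69.2% of all Nts UMIs in the Sim1 heterozygous library and 75.1% in the control library. The level in Foxb1-positive cells was close between the libraries, while the level in the other cells was not.

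Cartpt, which encodes the anorexigenic CART peptides, had 364 CPM [340 to 390] in Foxb1-positive cells and 129 CPM [117 to 142] in the other cells of the Sim1 heterozygous library, a log2 ratio of 1.49. In the control library the levels were 276 CPM [250 to 304] and 105 CPM [96.3 to 114], a log2 ratio of 1.39. Bdnf had 222 CPM [203 to 243] in Foxb1-positive cells and 108 CPM [97.3 to 121] in the other cells of the Sim1 heterozygous library (log2 ratio 1.04), and 151 CPM [132 to 173] and 92.8 CPM [84.6 to 102] in the control library (log2 ratio 0.71). The difference for Bdnf was smaller than for Nts in both libraries.

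Tac1 had 199 CPM [180 to 218] in Foxb1-positive cells and 152 CPM [138 to 166] in the other cells of the Sim1 heterozygous library, a log2 ratio of 0.39. In the control library it had 245 CPM [220 to 272] and 148 CPM [137 to 159], a log2 ratio of 0.73. Tac2 ran the other way: 7 UMIs in Foxb1-positive cells (3.15 CPM) and 67 UMIs in the other cells (21.2 CPM) of the Sim1 heterozygous library, a log2 ratio of -2.58. In the control library 0 UMIs fell in the 656 Foxb1-positive cells, where 3 UMIs would be the limit, and 22 UMIs fell in the other cells (4.35 CPM).

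**Figure D1:**
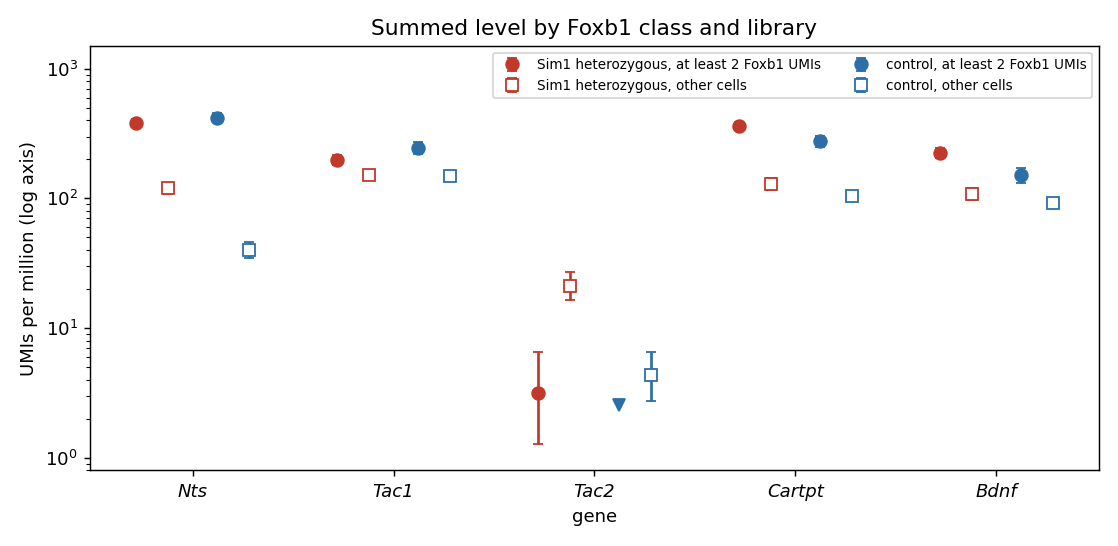
Summed CPM (log axis) of each gene in Foxb1-positive cells (filled circles) and other cells (open squares) of the Sim1 heterozygous library (red) and the control library (blue). Bars are 95% exact Poisson intervals, and the triangle for Tac2 marks the upper bound of a count of 0. Nts in control cells stands at 418 CPM in Foxb1-positive and 40.0 CPM in other cells, and Tac2 is the gene that is lower in Foxb1-positive cells.

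Over all genes with at least 30 UMIs, 8.21% of 11952 genes were at least 1.5-fold higher in Foxb1-positive cells of the Sim1 heterozygous library and 8.79% at least 1.5-fold lower, and in the control library 8.71% of 12670 genes were higher and 9.44% lower. Of the 5 genes, 3 were past 1.5-fold higher and 1 (Tac2) lower in the Sim1 heterozygous library. In the control library 4 of the 4 genes that reached 30 UMIs were higher and 0 lower. Since the genes were chosen on such values, nothing is read from these counts. A few rich cells set some of the sizes: without the 5 cells richest in the gene in each library, the log2 ratio of Foxb1-positive over other Sim1 heterozygous cells was 2.20 for Nts, 0.83 for Tac1, 2.36 for Cartpt and -1.09 for Tac2, and in control cells it was 2.11 for Cartpt. Among cells between the quartiles of depth it was -0.36 for Tac2 in the Sim1 heterozygous library and 1.33 for Tac1 in the control library.

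The members' levels did not all follow the Foxb1 count of the cell. For Nts, cells with exactly 1 Foxb1 UMI, just outside the limit, had 148 CPM in the Sim1 heterozygous library and 152 CPM in the control library, and cells with exactly 2, just inside it, had 406 and 337 CPM. The level was highest at 5 to 9 Foxb1 UMIs (422 and 535 CPM) and lower again at 10 or more (274 CPM [228 to 326] and 241 CPM [177 to 322]). Cartpt had its highest level in cells with 10 or more Foxb1 UMIs in both libraries, 435 CPM [377 to 500] in the Sim1 heterozygous library and 383 CPM [300 to 481] in the control library, against 95.1 and 102 CPM in cells with 0. At exactly 1 Foxb1 UMI, Cartpt stood at 286 CPM [244 to 334] in the Sim1 heterozygous library and 129 CPM [99.7 to 163] in the control library. Tac1 was at 115 CPM [86.4 to 151] at 10 or more Foxb1 UMIs in the Sim1 heterozygous library, below its 154 CPM [139 to 169] in cells with 0, while in the control library it was at 231 CPM [168 to 310] and 146 CPM [136 to 158]. Cells with 10 or more were deep, with a median of 4620 and 3496 UMIs.

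**Figure D2:**
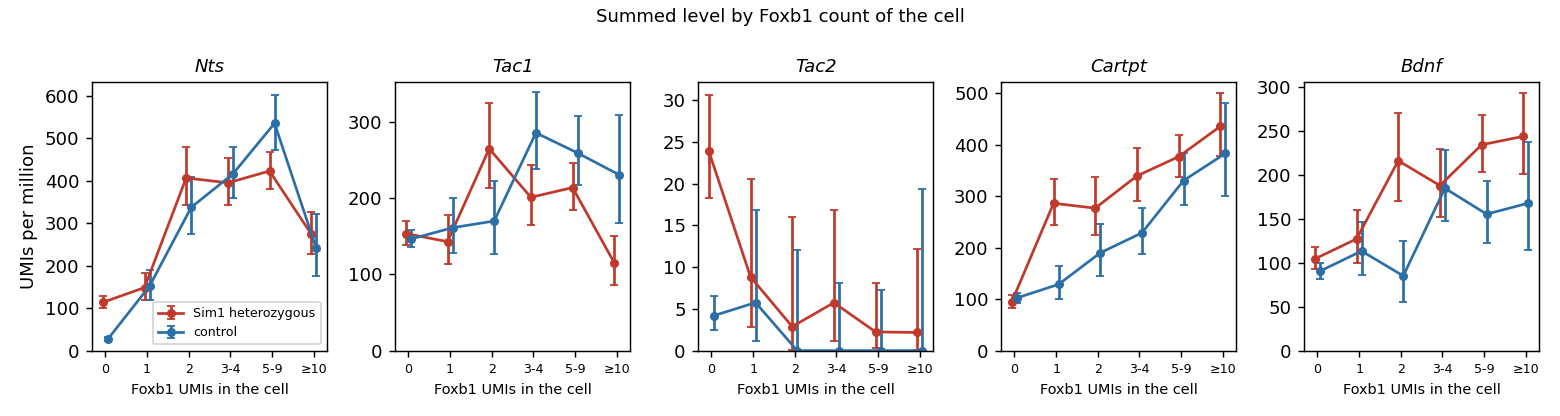
Summed CPM of each gene by the number of Foxb1 UMIs in the cell, in the Sim1 heterozygous library (red) and the control library (blue), with 95% exact Poisson intervals and a separate axis for each gene. Cartpt is highest at 10 or more Foxb1 UMIs (435 and 383 CPM), whereas Nts peaks at 5 to 9 (422 and 535 CPM).

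Per cell, Nts, Tac1 and Cartpt had a few rich cells in both libraries, Tac2 had them in the Sim1 heterozygous library (up to 15 UMIs, against 4 in the control library), and Bdnf stayed at low counts in both. Nts was found in 296 Sim1 heterozygous cells (12.1% [10.8 to 13.4]) and 202 control cells (7.21% [6.28 to 8.23]), with a median of 2 UMIs among them in each library and a highest count of 56 and 23. Among Foxb1-positive cells, 21.4% and 18.3% held Nts, so most Foxb1-positive cells had no Nts UMI. Cartpt was found in 468 cells (19.1%) and 332 cells (11.8%), with a highest count of 70 and 63. It was the most widespread of the 5 in Foxb1-positive cells, at 38.6% [35.4 to 42.0] in the Sim1 heterozygous library and 29.9% [26.4 to 33.5] in the control library, but no Foxb1-positive cell held more than 13 and 9 UMIs. Tac1 was found in 320 cells (13.1%) and 357 cells (12.7%), each with a highest count of 34, and Tac2 in 27 and 15 cells. Bdnf was found in 480 cells (19.6%) and 452 cells (16.1%) with at most 9 and 6 UMIs, and 60.4% and 67.5% of these cells held a single UMI.

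Shares of cells with a UMI depend on depth, so they are also given after thinning to 856 UMIs per cell, which left 1841 Sim1 heterozygous and 2647 control cells. Foxb1-positive cells were still those called before thinning, 768 and 620 cells, here and in all later values on thinned cells or UMIs. The class itself was thus set at unequal depth. Cartpt was then in 24.2% [21.2 to 27.4] of Foxb1-positive Sim1 heterozygous cells and 17.3% [14.4 to 20.5] of Foxb1-positive control cells. Bdnf was in 17.1% [14.5 to 19.9] and 10.6% [8.33 to 13.3], Nts in 16.1% and 14.03%, and Tac1 in 10.8% and 12.7%. In the other cells, Nts was in 4.01% [2.92 to 5.36] of Sim1 heterozygous cells and 2.02% [1.46 to 2.73] of control cells. Glia-like cells, which should lack these genes, gave the background. Before thinning (median 871 and 1350 UMIs) they held Nts in 3 of 56 and 0 of 55 cells, Cartpt in 0 of 56 and 3 of 55, Bdnf in 1 of 56 and 1 of 55, and Tac1 and Tac2 in none, where 0 cells allow a share of up to 5.36% and 5.45%. After thinning, Nts was in 2 of 29 Sim1 heterozygous glia-like cells (6.90%) and Cartpt in 2 of 55 control ones (3.64%). The thinned share of other Sim1 heterozygous cells with Nts lies within the wide interval of its glia-like cells [0.846 to 22.8]. Single Nts UMIs there therefore cannot be told from background. A limit of 2 Nts UMIs does not separate them either. Before thinning, 50 other cells (3.16%) and 2 of 56 glia-like cells (3.57%) of this library held at least 2. The highest Nts count of a glia-like cell was 4, and 14 other cells (0.886%) held at least 5. The share of other control cells with Cartpt, 4.24%, lies within the wide interval of its glia-like cells [0.443 to 12.5].

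**Figure D3:**
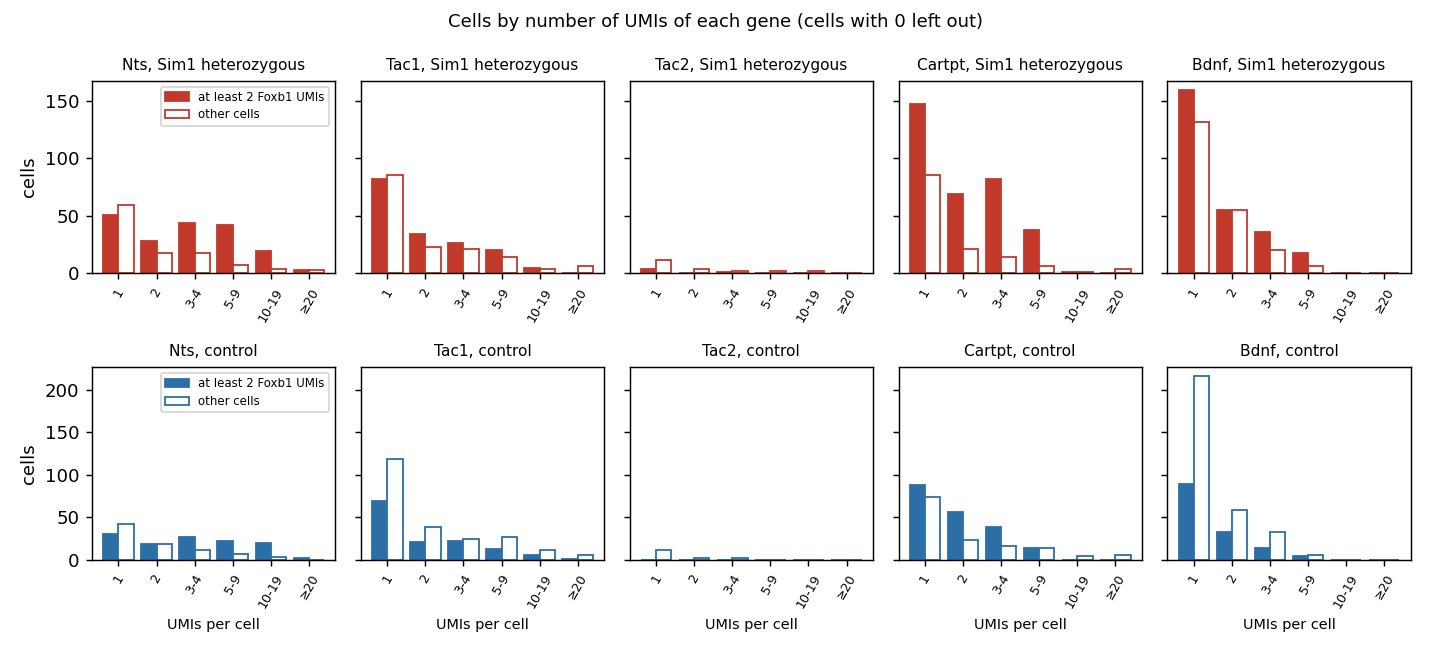
Number of cells by UMIs per cell of each gene, for Sim1 heterozygous (top, red) and control (bottom, blue) cells, with Foxb1-positive cells filled and other cells open. Each row has its own axis, and cells with 0 UMIs are left out. Bdnf bars end at 9 UMIs, while Nts, Tac1 and Cartpt reach 20 or more.

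The Nts UMIs of the other cells came from few cells in the Sim1 heterozygous library. Its 10 richest other cells held 53.3% of 379 UMIs, and the 5 richest 42.7%, against 42.1% and 26.2% of 202 UMIs in the control library. The richest held 56, 55 and 21 Nts UMIs, these 3 cells had no Foxb1 UMI, and all 3 lay in the cluster led by Nr2f2 and Gh. Clusters were built without the 5 genes and are called by their leading other genes, and Gh is a pituitary hormone gene, one of the pituitary markers that were far higher in the control library. In that cluster Nts had 207 UMIs in 237 Sim1 heterozygous cells (median 3002 UMIs) and 32 UMIs in 355 control cells (median 3360 UMIs), a log2 ratio of the summed CPM of 3.29 [2.79 to 3.91]. The cluster held 7 Sim1 heterozygous cells with at least 5 Nts UMIs and 1 such control cell, and those 7 held 176 of its Nts UMIs. Of the 7, 6 had a UMI of Slc17a6, the vesicular glutamate transporter of hypothalamic glutamatergic neurons, and 1 was Foxb1-positive.

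By cluster, the one led by Rprm and Hopx (474 and 379 cells) held 53.0% of Nts UMIs in the Sim1 heterozygous library and 70.3% in the control library, 45.9% and 37.2% of Cartpt UMIs and 40.1% and 21.7% of Bdnf UMIs. Of its cells 71.9% and 77.0% were Foxb1-positive, it was rich in Slc17a6 (995 and 735 CPM), and Gad2, an enzyme of GABA synthesis, had 0 and 3 UMIs there. Within it Nts was at 640 CPM [592 to 691] and 833 CPM [766 to 904], Tac1 at 252 CPM [222 to 285] and 418 CPM [371 to 470], Cartpt at 550 CPM [505 to 597] and 506 CPM [454 to 562], and Bdnf at 330 CPM [296 to 368] and 219 CPM [185 to 257]. Nts and Tac1 were thus lower and Bdnf higher in the Sim1 heterozygous cells of this cluster, by log2 ratios of -0.38 [-0.54 to -0.21], -0.73 [-0.98 to -0.49] and 0.59 [0.31 to 0.88]. Tac1 was spread more widely, with its largest control share (28.3%, against 23.7% in the Sim1 heterozygous library) in the cluster led by Nr2f2 and Gh, at 254 CPM [221 to 290] in Sim1 heterozygous cells and 235 CPM [209 to 262] in control cells.

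Tac2 was nearly confined to a single small cluster in the Sim1 heterozygous library. The cluster led, beside Tac2, by Stk32a and Pou3f3 (60 and 49 cells) held 63 of 74 Tac2 UMIs (85.1%) there and 7 of 22 (31.8%) in the control library. Its level was 297 CPM [228 to 380] in the Sim1 heterozygous cells and 49.7 CPM in the control cells, a log2 ratio of 2.41 [1.45 to 3.95]. The UMIs lay in 17 and 6 cells, the richest with 15, 14 and 6 UMIs in the Sim1 heterozygous library and with 2, 1 and 1 in the control library. Of the cells with at least 2 Tac2 UMIs anywhere, 10 of 11 Sim1 heterozygous and 1 of 4 control cells were in this cluster, and all 11 but only 1 of the 4 held a Slc17a6 UMI. The control cells with the most Tac2 (4 and 3 UMIs) were in the clusters led by Nrgn and Id2 and by Nfib and Neurod6.

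Cartpt UMIs were split over 4 sets of cells by other transcripts. Cells with at least 10 UMIs of Pmch, the melanin-concentrating hormone precursor, numbered 9 and 28 and held 5201 CPM [4339 to 6184] and 1565 CPM [1345 to 1810] of Cartpt. In the 9 Sim1 heterozygous cells, 2 cells with 70 and 50 UMIs held 93.8% of the 128 UMIs, so this difference rests on those cells. Cells with at least 10 UMIs of Avp (vasopressin) or Oxt (oxytocin) and fewer of Pmch numbered 28 and 129 and held 1257 CPM [1020 to 1534] and 309 CPM [255 to 372], a log2 ratio of 2.03 [1.62 to 2.43]. Cartpt was found in 12 of these 28 cells and 20 of these 129, and the 2 richest held 72.2% of 97 UMIs and 43.8% of 112. The remaining Foxb1-positive cells (871 and 654) held 66.0% of Cartpt UMIs in the Sim1 heterozygous library and 42.9% in the control library, at low counts per cell. All other cells held 15.5% and 25.7% (189 and 240 UMIs), at 61.7 CPM [53.2 to 71.1] and 52.3 CPM [45.9 to 59.4], and 1 control cell among them held 44 UMIs. That cell had 8 Oxt UMIs, below the limit of 10, and lay in the cluster led by Avp and Oxt. The ratio for Avp or Oxt cells therefore depends on the limit. In that cluster Cartpt was at 1348 CPM and 465 CPM, a log2 ratio of 1.54 [1.16 to 1.91]. The Pmch-rich cells held no Nts and no Tac2 UMI in either library.

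**Figure D4:**
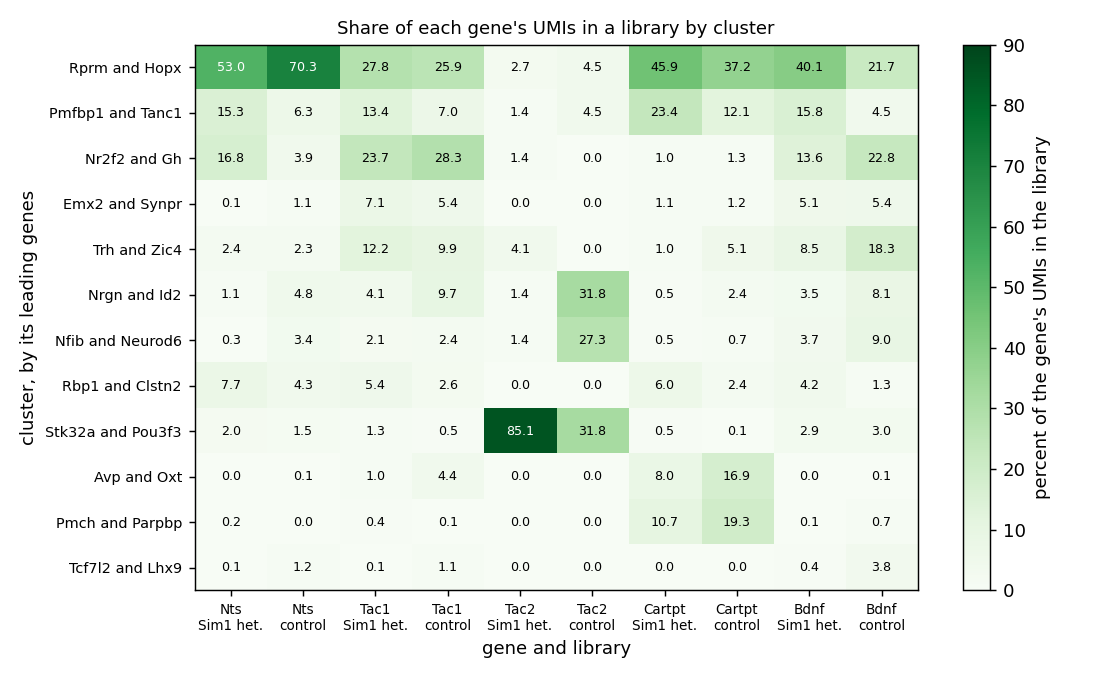
Percent of each gene's UMIs in a library that fell in each of 12 of the 16 cell groups (15 neuron-like clusters and the glia-like cells), with the Sim1 heterozygous library left of the control library for each gene. The cluster led by Rprm and Hopx holds the most Nts (53.0% and 70.3%), and the cluster led by Stk32a and Pou3f3 holds 85.1% and 31.8% of Tac2.

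Nts with Cartpt, Tac1 or Bdnf, and Cartpt with Bdnf, were found together in more cells than the product of their shares gives. On thinned cells, 64 Sim1 heterozygous and 34 control cells held both Nts and Cartpt, 2.81 [2.16 to 3.59] and 3.64 [2.52 to 5.09] times the product. Nts and Bdnf were together 2.15 [1.53 to 2.94] and 3.01 [2.03 to 4.30] times the product, Nts and Tac1 1.99 [1.33 to 2.85] and 3.43 [2.38 to 4.79] times, and Cartpt and Bdnf 2.09 [1.58 to 2.71] and 1.80 [1.18 to 2.62] times. The other pairs, Tac1 with Cartpt and Tac1 with Bdnf, stood at 1.18 [0.774 to 1.74] and 1.26 [0.788 to 1.90] in the Sim1 heterozygous library, where no excess was detectable, and at 1.87 [1.24 to 2.71] and 2.01 [1.37 to 2.83] in the control library. Of the cells with both Nts and Cartpt, 53 and 28 were Foxb1-positive, and within Foxb1-positive cells alone the ratio was 1.76 [1.32 to 2.31] and 1.86 [1.24 to 2.70]. For Tac1 and Cartpt it was 1.09 [0.686 to 1.66] and 1.03 [0.561 to 1.72] within Foxb1-positive cells, so a joint excess of these genes was not detectable there. Nts and Tac1 stood at 1.49 [0.912 to 2.30] and 2.35 [1.53 to 3.44]. Thinning left 11 and 8 cells with Tac2, too few for its pairs. Unthinned, 7 of 27 Sim1 heterozygous cells with Tac2 held Nts, 2.15 [0.863 to 4.42] times the product, 7 held Bdnf, 5 held Tac1 and 3 held Cartpt, and of 15 control cells 1 held Nts, 2 held Bdnf, 1 held Tac1 and 1 held Cartpt. Of unthinned Foxb1-positive cells, 20 and 15 held 4 of the 5 genes, and no cell held all 5. Doublets that may remain in the data can add to joint counts, and their part was not tested.

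**Figure D5:**
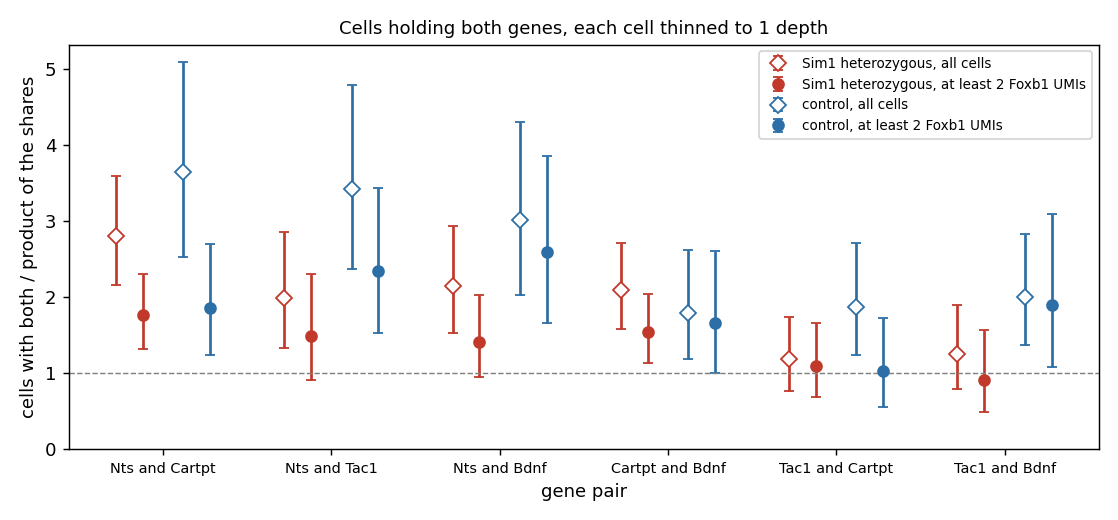
Number of thinned cells holding both genes of a pair over the number that the product of their shares gives, for all cells (open diamonds) and Foxb1-positive cells (filled circles) of the Sim1 heterozygous library (red) and the control library (blue), with 95% intervals from the exact Poisson interval of the joint count. The dashed line is 1. Nts and Cartpt stand at 2.81 and 3.64 in all cells and at 1.76 and 1.86 in Foxb1-positive cells.

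Over 11914 genes found in at least 1% of cells of each library, the likeness to each gene was measured as Pearson's r of log values over the cells of a library, with no test, taking the lower of the 2 libraries. Rprm, a p53 target, was most like Nts (r = 0.34 in the Sim1 heterozygous library and 0.36 in the control library), followed by Pcp4 (0.28 and 0.26), Nrp1, Cartpt and Smyd1. Rprm was also most like Cartpt (0.41 and 0.34), followed by Cck (0.32 and 0.34), Lhx1os, Foxb1 (0.33 and 0.30) and Lhx1, a LIM homeodomain factor of the mammillary body. Nts was most like both Tac1 (0.16 and 0.23) and Bdnf (0.18 and 0.18), with Rprm second for each. The genes most like Tac2, among them Epha4, Nefm and Nrp2, had r under 0.09 in both libraries. All these values are weak, and cells of different depth share the denominators.

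Between the libraries, over all kept cells, Nts was at 228 CPM [216 to 241] in the Sim1 heterozygous library and 125 CPM [116 to 134] in the control library, a log2 ratio of 0.87 [0.74 to 1.00]. Tac2 was at 13.7 and 3.38 CPM (74 and 22 UMIs; log2 ratio 1.98 [1.32 to 2.78]), Cartpt at 226 and 143 CPM (0.66 [0.53 to 0.78]) and Bdnf at 155 and 106 CPM (0.55 [0.41 to 0.70]). Tac1 was at 171 CPM and 170 CPM, a log2 ratio of 0.01 [-0.12 to 0.14]. At least 1.5-fold higher were 3 of the 5 genes (Nts, Tac2 and Cartpt), where 7.85% of 14595 genes were, and 0 of 5 were lower, where 9.24% were. The median log2 ratio of the 5 was 0.66 and that of all tested genes 0.04. With the mean over cells of CPM per cell, which gives shallow cells the same weight, Tac2 fell short of 1.5-fold (log2 ratio 0.29), and it was 1.11 on thinned UMIs.

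The higher share of Foxb1-positive cells in the Sim1 heterozygous library enters these sums, and the 2 classes of cells taken apart gave different values. In Foxb1-positive cells the log2 ratio of Sim1 heterozygous over control was -0.13 [-0.28 to 0.03] for Nts, -0.31 [-0.51 to -0.10] for Tac1, 0.40 [0.23 to 0.58] for Cartpt and 0.55 [0.32 to 0.79] for Bdnf. In the other cells it was 1.58 [1.33 to 1.84] for Nts, 0.04 [-0.13 to 0.20] for Tac1, 2.24 [1.57 to 3.05] for Tac2, 0.30 [0.11 to 0.49] for Cartpt and 0.23 [0.02 to 0.43] for Bdnf, which turned to -0.065 on thinned UMIs. The sign for Nts in Foxb1-positive cells was not stable, at 0.11 on thinned UMIs and 0.057 with the mean over cells. The higher Nts of the Sim1 heterozygous library therefore lay in the other cells and in the larger number of Foxb1-positive cells, not in the level within Foxb1-positive cells. Without the 5 cells richest in the gene in each library, the ratio in the other cells was 1.23 for Nts, 1.81 for Tac2 and 0.07 [-0.20 to 0.32] for Cartpt. The clusters that make up the Foxb1-positive cells differed in share between the libraries, as given above.

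Genes of the same pathways were taken as lists. Of 12 receptors and binding partners, 11 were in the table and 9 reached 30 UMIs, of which 1 was at least 1.5-fold higher and 0 lower in the Sim1 heterozygous library, against 7.85% and 9.24% of all genes (median log2 ratio 0.34, against 0.04 for all genes). Ntrk2, which encodes TrkB, was at 175 CPM and 138 CPM (0.34 [0.21 to 0.47]), and Sort1 (sortilin, which binds neurotensin and proBDNF) at 31.0 and 21.8 CPM. In Foxb1-positive cells Ntrk2 was below the other cells in both libraries, with log2 ratios of -0.36 [-0.56 to -0.17] and -0.30 [-0.56 to -0.06]. Over that list, 0 of 8 were higher and 4 of 8 lower in the Sim1 heterozygous library, and 0 of 8 and 1 of 8 in the control library, against 8.21% and 8.79% and against 8.71% and 9.44% of all genes. Ntsr1, a neurotensin receptor, stood at 12.6 CPM in Foxb1-positive cells and 22.8 CPM in the other cells of the Sim1 heterozygous library, and at 13.7 and 12.3 CPM in the control library.

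Of 16 peptide-processing and vesicle genes, 3 of 15 were at least 1.5-fold higher and 0 lower in the Sim1 heterozygous library, against 7.85% and 9.24% of all genes. Scg2 (secretogranin II) was lower in Foxb1-positive cells of both libraries, at 731 CPM against 1881 CPM in the other cells of the Sim1 heterozygous library and 681 against 1361 CPM in the control library. Cpe, the carboxypeptidase that trims peptide ends, was at 705 against 836 CPM and 626 against 692 CPM. Among relatives of the 5 genes, Nmu (neuromedin U) had 32 UMIs in Foxb1-positive and 13 in other Sim1 heterozygous cells, and 23 and 15 in control cells, log2 ratios of 1.75 [0.84 to 2.86] and 2.38 [1.41 to 3.45].

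Of 14 mammillary factors, 4 of the 10 tested were higher and 2 lower in Foxb1-positive cells of the Sim1 heterozygous library, and 7 and 2 of 10 in the control library, against 8.21% and 8.79% and against 8.71% and 9.44% of all genes, Foxb1 itself included, which the rule used. Lhx1 was at 859 CPM in Foxb1-positive and 228 CPM in other Sim1 heterozygous cells, and at 729 and 135 CPM in control cells. Otp, a factor of paraventricular neurons, was at 21.2 and 367 CPM in the Sim1 heterozygous library and 19.2 and 445 CPM in the control library. Of the transmitter genes, Slc17a6 was at 847 and 738 CPM in Foxb1-positive and other Sim1 heterozygous cells and at 686 and 584 CPM in control cells, and Gad2 at 8.55 and 79.4 CPM and at 4.11 and 35.2 CPM.

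Of 19 activity-dependent and stress genes in the table, 17 were tested, and 4 were at least 1.5-fold higher and 0 lower in the Sim1 heterozygous library, where 7.85% and 9.24% of all genes were, so 13 passed in neither direction. Hspa8, a heat shock protein also used as a sign of stress in dissociated cells, was at 293 CPM and 18.1 CPM (log2 ratio 4.00 [3.74 to 4.30]) and Jund at 210 and 136 CPM (0.62 [0.50 to 0.75]) while Fos, at 48.8 and 33.0 CPM (0.56 [0.30 to 0.83]), fell short of 1.5-fold. In Foxb1-positive cells, where Bdnf was higher, 2 of 14 were higher and 6 lower in the Sim1 heterozygous library, and 0 and 7 of 14 in the control library (all genes 8.21% and 8.79%, and 8.71% and 9.44%), Fos with log2 ratios of -0.70 [-1.11 to -0.32] and -1.51 [-2.34 to -0.89]. The part of these genes in the Bdnf and peptide differences was not tested. Of 7 regulators of Bdnf, 6 were tested, and 0 were higher and 1, Mef2c, lower in the Sim1 heterozygous library, against 7.85% and 9.24% of all genes (18.4 and 35.5 CPM; -0.94 [-1.30 to -0.60]).

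Nts, Cartpt, Bdnf and Tac1 were each higher in the sum over Foxb1-positive cells. The sequence before the start sites of the 5 genes (RefSeq, GRCm38.p6) was searched on both strands for a few published motifs. Each window ran from 250 bases before to 50 bases after a start. All 5 genes matched, Bdnf with 7 start sites and the others with 1. The full cyclic AMP response element TGACGTCA was found for Cartpt alone, against 1.79% of 32851 windows. Its shorter core TGACG was found for Nts, Tac1, Cartpt and Bdnf (start site 3 of the 7) and not for Tac2. That core was in 20.8% of all windows, so a match to it is common. The AP-1 site TGAGTCA was found for Nts alone, against 1709 of the 32851. The forkhead core GTAAACA was found in none of the 11 windows, against 3.65% of all, and the homeodomain core TAATTA for Tac1 alone, against 5.29%. The AP-1 site of Nts and the full response element of Cartpt are shown with 30 bases of context on the gene's strand, the motif in capitals. They lie at chr10:102490607-102490636 (Nts) and chr13:99900777-99900806 (Cartpt). The Nts site begins 207 bases and the Cartpt site 112 bases before the RefSeq start. The GENCODE span of Cartpt given above reaches 99901091, upstream of that RefSeq start. The Cartpt site therefore lies inside the GENCODE span and is before the start by RefSeq only.
Nts: aactctttctgTGAGTCAgaaatcctgagc
Cartpt: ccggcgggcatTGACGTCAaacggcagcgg
A match is a description of the letters, and binding was not measured here.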

How the data were processed

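The authors deposited UMI counts per gene and cell barcode for each library and as a merged table, which held the same values. Per the submitters' processing notes, bcl2fastq, Picard, STAR 2.6.0b and Seurat 3 were used with build mm10; of the gene annotation, counter, strand setting and barcode rule nothing is stated in the labels. Barcodes with under 300 genes (22 Sim1 heterozygous, 1 control) were left out, and a limit of 20% mitochondrial UMIs removed none. Scrublet marked 5 of 5260 cells (0.0951%), a share so low that the caller cannot be relied on here. Doublets must therefore be taken as possibly remaining in the data. Counts were summed over cells and given per 1000000 UMIs (CPM) with exact Poisson intervals. Log2 ratios have a pseudocount of 1 UMI and conditional exact binomial intervals, and shares have Clopper-Pearson intervals, all at 95%. Cells of a pool are not replicates, and intervals cover counting error only. A gene is counted as higher or lower at 1.5-fold with at least 30 UMIs. Thinning to 856 UMIs left out 611 Sim1 heterozygous and 156 control cells. Clusters used 2000 variable genes without the 5 genes, 30 principal components, 20 neighbours and Leiden resolution 1 (scanpy 1.11.5, leidenalg 0.10.2, Python 3.11.15, scipy 1.17.1). The ratio and its interval were tested on simulated data. Named genes are the 5, the 5 most like each, and up to 4 per list with the most UMIs. Ntsr1, Fos and Mef2c, and the split of Cartpt by Pmch, Avp and Oxt, were chosen after their values were seen. The 5 genes, the lists and the rules were chosen with earlier results of these data known. Alternatives changed the cell filter, doublets, scaling, pseudocount, weights, depth, Foxb1 limit and richest cells.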

Additional observations from a re-analysis of the deposited data

Results flagged for a closer look

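The log2 ratio of Sim1 heterozygous over control pointed opposite ways in different cells for 3 genes, each from 1 library per genotype, so the difference between the cells was not tested. Nts was at -0.13 [-0.28 to 0.03] in Foxb1-positive cells, an interval that spans both signs, and at 1.58 [1.33 to 1.84] in the other cells. The value in Foxb1-positive cells turned positive on thinned UMIs (0.11). By cluster, Nts was higher in those led by Nr2f2 and Gh (3.29) and by Trh and Zic4 (1.43), and lower in those led by Emx2 and Synpr (-2.20, from 1 UMI and 9 UMIs), Nfib and Neurod6 (-2.04, from 4 and 28 UMIs) and Rprm and Hopx (-0.38). In the cluster led by Nfib and Neurod6, 3 control cells with 9, 8 and 6 UMIs held most of the 28, and Nts was found in 1.94% and 1.68% of cells. Tac1 was at -0.31 [-0.51 to -0.10] in Foxb1-positive cells and 0.038 [-0.13 to 0.20] in the other cells, the latter interval spanning both signs. In the other cells Tac1 was at -0.11 without the 5 richest cells of each library. It was higher in the cluster led by Trh and Zic4 (0.88) and lower in those led by A230103L15Rik and Gm44562 (-1.85, from 4 and 11 UMIs), Pmfbp1 and Tanc1 (-0.83) and Rprm and Hopx (-0.73). Cartpt was higher in the clusters led by Avp and Oxt (1.54) and by Slc32a1 and Dlx1 (3.60, from 9 UMIs and 1 UMI) and lower in that led by Trh and Zic4 (-1.07).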

How the results depend on the processing

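No paired analysis was possible because there was 1 library per genotype and the labels carry no replicate numbers. Over 15 log2 ratios and 189 alternatives, 158 values stayed within the counting interval of the reported ratio and 31 left it. No ratio whose interval lay on 1 side of 0 changed sign, while that of Tac1 between libraries (0.01) did in 4 alternatives; Tac2 in control cells could not be given as a mean over cells, since no Foxb1-positive cell held it. Without the 2% of cells with the most UMIs, Nts was at 0.74 (Sim1 heterozygous over control) and 2.21 (Foxb1-positive over other Sim1 heterozygous cells). With the mean over cells of CPM per cell, Tac2 was at 0.29 and Cartpt at 0.45 (Sim1 heterozygous over control), Tac1 at 0.65 in Sim1 heterozygous and 1.04 in control cells, and Nts at 2.96 in control cells. On thinned UMIs, Tac2 was at 1.11 between libraries, and Foxb1-positive over other cells gave Nts 1.97 and Bdnf 1.45 in Sim1 heterozygous cells and Tac1 0.92 in control cells. Without the 5 richest cells it gave Nts 2.20, Tac1 0.83, Tac2 -1.09 and Cartpt 2.36 in Sim1 heterozygous cells and Nts 3.15, Tac1 1.02 and Cartpt 2.11 in control cells. In the middle range of cells by depth (between the quartiles) it gave Nts 2.35, Tac1 0.83, Tac2 -0.36 and Bdnf 1.30 in Sim1 heterozygous cells and Tac1 1.33 and Bdnf 1.07 in control cells. With at least 1 Foxb1 UMI it gave Cartpt 1.87 (Sim1 heterozygous) and Nts 3.67 (control), with at least 3 Nts 1.35 and Tac1 0.19 (Sim1 heterozygous) and Nts 2.95 (control), and with 0 Foxb1 UMIs in the other cells Cartpt 1.93 (Sim1 heterozygous) and Nts 3.94 (control). Genes past 1.5-fold numbered 1166 with at least 100 UMIs and 8414 with no filter between libraries, 868 and 7902 for Foxb1-positive over other Sim1 heterozygous cells and 958 and 8905 in control cells, against 2494, 2032 and 2300 as reported. Among alternatives chosen after seeing the data, Bdnf in the other cells, at 0.23, was at -0.065 on thinned UMIs. The causes were not tested. Depth limits Tac2 most, with 22 UMIs in the control library.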
